A study of Mus musculus with 16 samples.

Results

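The genes studied here encode the subunits of the receptors for glutamate and for GABA, the main excitatory and the main inhibitory transmitter of the brain. They were chosen by gene symbol, as the AMPA (Gria), kainate (Grik), NMDA (Grin), delta (Grid) and metabotropic (Grm) glutamate receptor families, the GABA-A subunits alpha, beta, gamma, delta, epsilon and theta and the GABA-B subunits. On the Illumina bead array used, 41 of 25697 probes, for 31 genes, met this rule. AMPA subunits had 9 probes for 4 genes, kainate subunits 6 probes for 4 genes, NMDA subunits 5 probes for 5 genes, metabotropic receptors 5 probes for 5 genes, GABA-A subunits 14 probes for 12 genes, and GABA-B 2 probes for Gabbr1. Further genes of these families, the delta receptors among them, were not analysed here.

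RNA came from tissue labelled brain and tissue labelled liver of 8 male mice aged 17 weeks, of strain C57BL/6J, with 1 array for each tissue of each mouse and 16 arrays in all. The groups were homozygous brain, wild-type brain, homozygous liver and wild-type liver, with 4 mice of each genotype, and every sample, wild type included, carries the allele entry Pts-R15C-ki. Pts encodes an enzyme of the synthesis of tetrahydrobiopterin, the cofactor of the hydroxylases that start the synthesis of dopamine and serotonin, and the series is titled for mutants with mildly reduced tetrahydrobiopterin and an altered pattern of body fat. The labels do not say which regions of the brain were taken, or whether the wild-type mice were littermates.

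AMPA, kainate and NMDA receptors are glutamate-gated cation channels built from 4 subunits each, and the metabotropic glutamate receptors act through G proteins. GABA-A receptors are chloride channels, whose alpha, beta, gamma or delta subunits set where on the neuron they sit and how they respond. GABA-B receptors are G protein-coupled pairs in which Gabbr1 binds GABA. Most of these genes are known for expression in neurons, and many of them are restricted to particular brain regions.

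RefSeq promoter windows of assembly GRCm38.p6, from 250 bases before to 50 bases after a transcript start, were held for 24 of the 31 genes, 31 windows in all. Their median GC content was 59.7%, against 52.7% over all 32851 windows, and their median number of CpG dinucleotides was 12, against 7. The windows were searched on both strands for AGCACCNNNGACAG, the core letters of the element bound by REST, a repressor of neuronal genes in other cells; no other motif was searched. The letters occurred in 2 of the 31 windows and in 21 of all windows (0.0639%). Both are shown because they hold the letters, with the match in capitals and 60 bases on each side. They belong to the AMPA subunit Gria2 and the GABA-A subunit Gabrb1, which were far above liver in brain. The search did not use the tissue values, and no window of another receptor gene had the match. The Gria2 stretch lies at chr3:80802932-80803065 on the minus strand, and its match reads on the other strand, from 170 to 157 bases before the start. The Gabrb1 stretch lies at chr5:71699753-71699886 on the plus strand, with the match from 119 to 106 bases before the start, in 1 of the 2 windows of the gene. A match is a run of letters and was not tested as a binding site.
Gria2: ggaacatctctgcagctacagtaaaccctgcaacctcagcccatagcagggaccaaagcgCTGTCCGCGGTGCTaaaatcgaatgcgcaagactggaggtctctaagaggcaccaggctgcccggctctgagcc
Gabrb1: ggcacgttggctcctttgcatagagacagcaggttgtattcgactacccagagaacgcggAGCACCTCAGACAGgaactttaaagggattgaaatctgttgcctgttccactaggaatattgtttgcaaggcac

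Each array reports the brightness of a probe and a detection p-value for its excess over the negative control beads, and a probe is called detected on an array where that p-value is under 0.05. A brain array detected 13241 to 14576 probes and a liver array 11785 to 12315. Of 10 neuronal marker genes, 7 were detected on all 8 brain arrays and 3 on all 8 liver arrays. Of 9 hepatocyte marker genes, 7 were detected on all 8 liver arrays and 1 on all 8 brain arrays, where 5 were detected on none. The Pts probes, which need not read the altered base, were higher in homozygous mice by 0.69 and 0.39 on the log2 scale in brain (adjusted p 1 for both) and by 0.90 and 0.58 in liver (adjusted p 0.0624 and 0.0540; limma). The 2 detected probes of neutrophil and monocyte markers stood high in brain of wild-type mice 1 and 2, at 2.56 and 2.28 above their mean over the 8 arrays on the log2 scale. In liver, markers of this list were lower in homozygous mice. S100a8 differed by -2.51 (adjusted p = 0.0490, limma) and Lcn2 by -6.06 (adjusted p = 0.0610, limma). Brain arrays also differed in brightness, as described with the values this touches.

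Receptor subunits were measured mainly in brain. In brain, 26 probes of 20 genes were detected on at least 4 of the 8 arrays, which is 63.4% of the receptor probes, against 53.9% of all probes on the array. In liver, 6 probes of 6 genes reached that level, 14.6% of the receptor probes, against 46.5% of all probes. In brain, 21 probes were detected on all 8 arrays, 3 on 1 array and 12 on none, and in liver 1 probe was detected on all 8, 4 on 1 to 3 arrays and 31 on none. There were 12 probes detected on none of the 16 arrays (29.3%, against 28.7% of all probes), and they left 9 genes without any detected probe: Gabra2, Gabra4, Gabra5, Gabre, Gabrg3, Gabrq, Grin2d, Grm3 and Grm6. For these genes the arrays give an upper bound of brightness only.

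Detection differed between probes of the same gene. Of 7 genes with more than 1 probe, 3 (Grik1, Gabbr1 and Gabrb2) had 1 probe detected on all 8 brain arrays and another detected on at most 1 of them. For Grik1, which encodes a kainate receptor subunit, 1 of 3 probes was detected on all brain arrays and the others on none. The Gabbr1 probe ILMN_2680745 was detected on all 8 brain arrays and ILMN_1220286 on none, although both were designed on the same transcript accession. A gene described as not well above background therefore means only that the probes present here did not report it.

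AMPA receptor probes were higher in brain than in liver in all 9 cases. Only 2 of the 9 met the detection filter in liver, and the others entered through brain, which favours a higher signal there. Gria2 is the subunit whose edited form keeps calcium out of the channel. On the log2 scale, with the 16 arrays normalized together, Gria2 probe ILMN_2680737 lay at 11.98, 12.29 and 12.48 (lowest, median, highest) on the 8 brain arrays and at 4.58, 4.91 and 5.33 on the 8 liver arrays. The brain arrays were thus far above the liver arrays with no overlap, a fitted difference of 7.35 (SE 0.12, adjusted p = 9.51e-20, limma). The second Gria2 probe, ILMN_3122922, averaged 10.20 ± 0.21 in brain and 4.35 ± 0.15 in liver (SD, n = 8 each). No liver array had it well above background. The fitted difference was 5.85 (adjusted p = 1.28e-19, limma). Brain was at least 37.9-fold above liver on this probe, a bound taken against the lowest detected signal of each liver array. Here and below, an adjusted p given beside such a bound belongs to the fitted difference, which uses the undetected liver signals. The bound itself was not tested, and each bound holds only for the background correction and normalization used here. Over 15 alternative settings, the fitted difference of this Gria2 probe ranged from 3.41 to 5.97. That of Gabrb1 probe ILMN_2826167, given below, ranged from 2.41 to 4.95.

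Gria1, which takes part in the insertion of AMPA receptors at potentiated synapses, was detected by 3 probes on all brain arrays and on no liver array. Its brain levels were at least 14.8-fold, 6.50-fold and 6.16-fold above liver (limma, adjusted p = 9.00e-14, 2.49e-11 and 3.33e-12). Gria4 was at least 1.17-fold above liver, with a fitted difference of 0.89 (adjusted p = 5.06e-08 for the fitted difference, limma). Gria3, another AMPA subunit, was higher in brain by 1.29 on probe ILMN_2638066 (SE 0.16, adjusted p = 6.78e-07, limma), which 4 liver arrays detected, and by at least 1.16-fold on probe ILMN_1223636, which none detected (adjusted p = 5.34e-08, limma). The remaining Gria3 probe, ILMN_1238789, lay at 4.44, 4.98 and 5.17 on brain arrays and at 4.24, 4.30 and 4.76 on liver arrays (adjusted p = 0.000116, limma). On this last probe the lowest brain array fell inside the liver range, no liver array detected it, and no bound above 1-fold can be given.

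Among kainate receptor subunits, Grik1 was above liver on every brain array. Grik1 probe ILMN_1243701 lay at 6.62, 6.99 and 7.14 on brain arrays and at 4.26, 4.31 and 4.49 on liver arrays, at least 3.99-fold higher in brain (adjusted p = 1.81e-15, limma). Grik5, which encodes a high-affinity kainate subunit, averaged 7.24 ± 0.60 in brain and 4.96 ± 0.19 in liver (SD, n = 8 each), a difference of 2.28 (SE 0.20, adjusted p = 8.56e-09, limma). Grik4, the other high-affinity subunit measured, behaved differently. It lay at 4.87, 5.10 and 5.22 on brain arrays and at 4.53, 5.00 and 5.35 on liver arrays, so that the tissues overlapped (difference 0.14, SE 0.11, adjusted p = 0.224, limma).

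The NMDA receptor probes present gave low signals in both tissues, and none of them was for Grin1. Grin2a was detected on 1 brain and 1 liver array and Grin2d on no array, so these probes were not tested. Grin3b, a glycine-binding subunit, lay at 4.47, 4.93 and 5.06 on brain arrays and 4.30, 4.50 and 4.89 on liver arrays, none of which detected it (adjusted p = 0.0549, limma). Grin2c, known from cerebellar granule cells and detected in both tissues, lay at 5.01, 5.14 and 5.53 on brain arrays and 4.75, 5.22 and 5.63 on liver arrays (difference 0.02, SE 0.11, adjusted p = 0.879, limma). Neither passed the threshold. Grin2b, a glutamate-binding subunit of forebrain receptors, averaged 4.70 ± 0.07 in brain, where 5 arrays detected it, and 4.50 ± 0.20 in liver, where none did (SD, n = 8 each, adjusted p = 0.0379, limma). For Grin3b and Grin2b no bound above 1-fold can be given. The Grin2b call was lost when any 1 of homozygous mice 1, 3 and 4 or wild-type mice 1, 3 and 4 was left out (adjusted p 0.0582 to 0.119). It was also lost with mouse as a block (adjusted p = 0.0545), with the authors' normalized values (0.0585) and in wild-type arrays only (0.0946, limma). Of 15 alternatives in all, 6 kept it. Grin3b passed with mouse as a block (adjusted p = 0.0387), without homozygous mouse 2 (0.0278) and without wild-type mouse 1 (0.0455).

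Metabotropic glutamate receptors had 3 probes that met the detection filter in brain, for Grm4, Grm7 and Grm8, which couple to inhibitory G proteins. The Grm3 and Grm6 probes were detected on no array. Grm7, a presynaptic receptor, lay at 5.53, 5.60 and 6.02 on brain arrays and at 4.23, 4.34 and 4.74 on liver arrays, at least 1.67-fold higher in brain (adjusted p = 3.77e-10, limma). Grm8 was the 1 receptor probe detected on all 16 arrays, with 6.47 ± 0.09 in brain and 5.40 ± 0.29 in liver (SD, n = 8 each), a difference of 1.08 (SE 0.10, adjusted p = 1.01e-08, limma). Grm4 lay at 4.49, 4.73 and 4.84 on brain arrays and at 4.26, 4.52 and 4.85 on liver arrays, none of which detected it (adjusted p = 0.0601, limma). Grm4 passed without homozygous mouse 3 (adjusted p = 0.0175) and without wild-type mouse 4 (0.0426).

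All 7 GABA-A probes tested were higher in brain, and none of their lowest brain arrays reached down to the highest liver array. None of the 7 met the detection filter in liver. They entered the comparison through brain, which favours a higher signal there by construction. Gabrb1 encodes a beta subunit, the kind that forms the GABA-binding site together with an alpha subunit, and it lay at 8.96, 9.10 and 9.25 on brain arrays and at 4.27, 4.34 and 4.63 on liver arrays. No liver array detected it, and brain was at least 17.5-fold higher (adjusted p = 3.41e-20, limma). Gabra6, an alpha subunit known from cerebellar granule cells, lay at 4.71, 5.23 and 5.59 on brain arrays and 4.18, 4.26 and 4.33 on liver arrays, at least 1.19-fold higher in brain (adjusted p = 7.32e-07, limma). Gabrd, the subunit of extrasynaptic receptors, was at least 13.8-fold higher on probe ILMN_2698299 (adjusted p = 3.36e-18, limma). Gabbr1 probe ILMN_2680745 of the GABA-B receptor lay at 8.18, 8.26 and 8.56 on brain arrays and at 4.20, 4.25 and 4.40 on liver arrays, at least 10.3-fold higher in brain (adjusted p = 5.01e-19, limma).

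Over all classes, 22 of the 26 tested probes were higher in brain, 0 were lower and 4 did not pass (Grik4, Grin2c, Grin3b and Grm4). Of all 15712 probes tested, 40.8% were higher in brain and 42.1% lower. Brain stood above liver without overlap for 20 of the 26 probes, against 30.6% of all tested probes. The median fitted difference was 1.40 for the receptor probes and -0.04 for all probes. Of the 26, 18 were detected on no liver array, and with these at their bound (at 0 for the 4 that have none above 1-fold) the median was 1.20. All 26 met the detection filter in brain and 20 of them met it in brain alone, which favours a higher signal in brain by construction, so these counts are given as a description. With each tissue normalized on its own, the median of all probes moved to 0.45 and the calls split into 9124 higher and 4130 lower in brain (68.8% higher), against 6416 and 6620 (49.2%) with all arrays together, and 26 of 26 receptor probes passed as higher in brain.

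**Figure D1:**
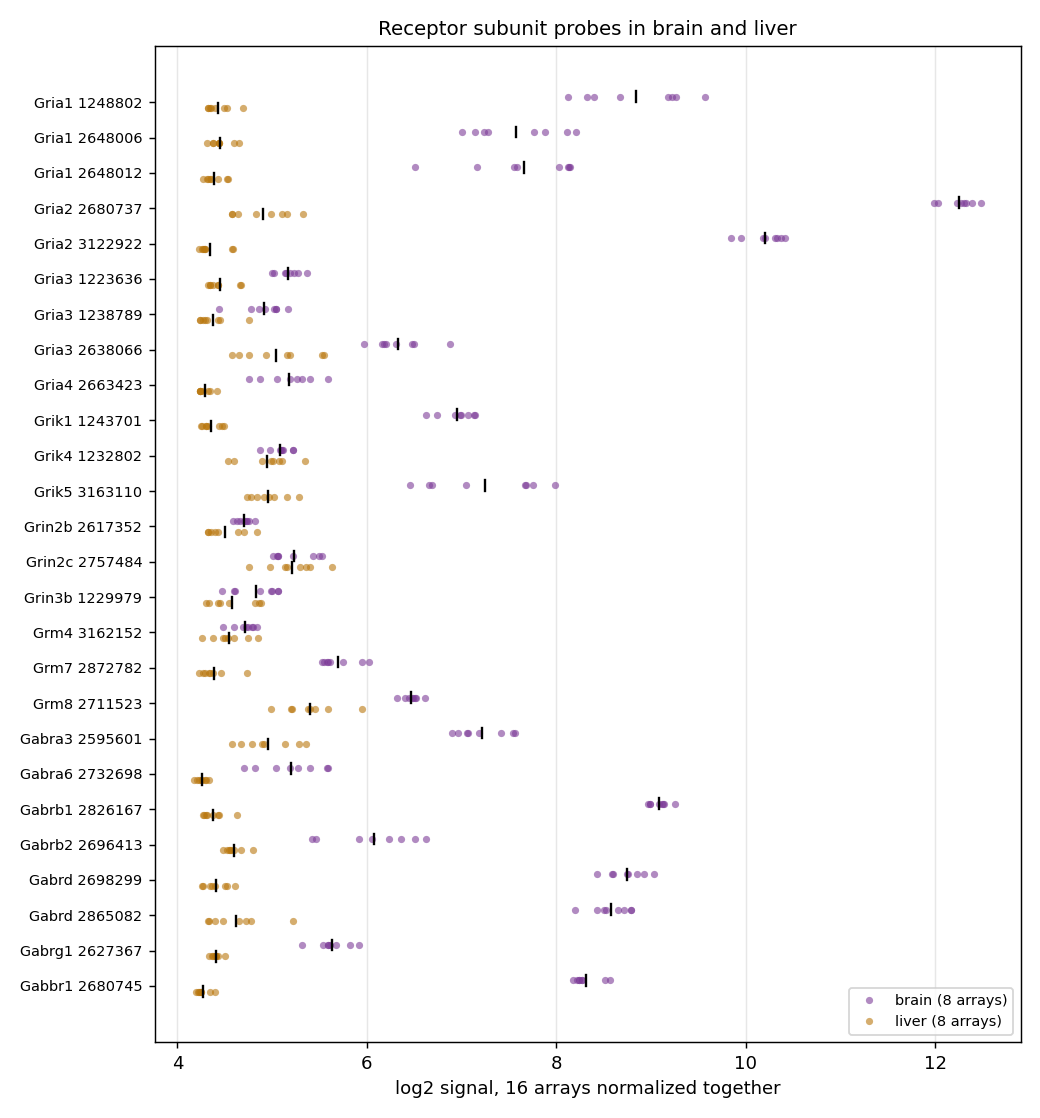
Log2 signal of the 26 receptor probes tested, with all 16 arrays normalized together (horizontal axis), for 8 brain arrays (purple) and 8 liver arrays (orange); black ticks are means and each row is labelled with the gene and the number of its probe. Brain and liver points are apart for 20 probes, with 11.98 against 5.33 at the nearest arrays for Gria2 ILMN_2680737, and overlap for Grik4, Grin2b, Grin2c, Grin3b, Grm4 and Gria3 ILMN_1238789.

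The comparison of genotypes asked whether subunit transcripts differed in mice homozygous for the allele. In brain, no tested receptor probe passed the threshold for a rise or a fall. With limma over the 13862 probes detected in brain, 0 of the 26 receptor probes passed an adjusted p of 0.05 and 0 had an unadjusted p under 0.05, while among all probes 2 passed (0.0144%) and 3.17% had an unadjusted p under 0.05. Of the 26, 13 lay above 0 and 13 below, with a median log2 difference of 0.0004 against 0.005 for all probes. Homozygous and wild-type arrays overlapped for all 26, while they did not overlap for 2.06% of all probes. The 95% interval of the difference stayed within 1 on the log2 scale, a 2-fold change either way, for 26 of 26 receptor probes (98.4% of all probes), and within 0.5 for 18 of them. The median SE was 0.14 for the receptor probes and 0.15 for all probes. Without wild-type mice 1 and 2, where the neutrophil and monocyte markers were high, again 0 receptor probes passed. In these bulk samples, fewer cells of a type and less RNA per cell cannot be told apart.

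Among AMPA subunits in brain, with values now normalized within brain, Gria4 had the largest difference and the smallest p of all receptor probes. Gria4 lay at 5.69, 5.37, 5.79 and 5.99 in homozygous mice 1 to 4 and at 5.53, 4.96, 5.63 and 5.13 in wild-type mice 1 to 4. Homozygous mouse 2 fell below wild-type mice 1 and 3, so the groups overlapped. The difference of 0.39 (SE 0.18, 95% interval -0.01 to 0.80) had an unadjusted p of 0.055 and an adjusted p of 1 (limma). Gria4 lies on the chromosome of Pts, 9, at a distance of 46.1 Mb, and Grik4 lies on it at 8.00 Mb. The genotype difference of Grik4 in brain was 0.04 (interval -0.24 to 0.32).

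Gria3 probe ILMN_1223636 had the next smallest p. It lay at 5.64, 5.75, 5.54 and 5.49 in homozygous brain and at 5.59, 5.48, 5.30 and 5.33 in wild-type brain, a difference of 0.18 (SE 0.11, interval -0.07 to 0.43, limma). The other Gria3 probes had differences of 0.05 and -0.02, so the probes of this gene did not move together. Gria2 probe ILMN_2680737 was tight, at 12.13, 12.08, 12.06 and 11.82 in homozygous brain and 12.20, 11.77, 12.03 and 11.99 in wild-type brain (difference 0.02, interval -0.26 to 0.30). For Gria1 the groups shared a wide spread, with differences of -0.05, -0.08 and -0.19 on its 3 probes, the last being the lowest of the class.

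Kainate and NMDA subunits were likewise within the spread between mice in brain. Among kainate probes, Grik1 had the genotype difference furthest above 0 (0.11, interval -0.18 to 0.40). It lay at 7.46, 7.34, 7.27 and 7.32 in homozygous brain and at 7.10, 6.98, 7.40 and 7.47 in wild-type brain. Grik5 had the lowest difference, at -0.19 with an interval of -0.93 to 0.55, the widest of all receptor probes. Grin2b, at 4.93, 4.73, 4.78 and 4.89 in homozygous brain and 4.94, 4.97, 4.84 and 5.05 in wild-type brain, was lower in homozygous brain by a fitted -0.12 (SE 0.10, interval -0.35 to 0.11, unadjusted p = 0.27, limma), and 1 homozygous against 4 wild-type arrays detected it. Grin3b lay at 4.56, 4.76, 5.29 and 5.37 in homozygous brain and 4.74, 5.38, 5.30 and 5.13 in wild-type brain (difference -0.14, interval -0.61 to 0.32). The third NMDA probe, Grin2c, lay above 0, at 5.37, 5.82, 5.93 and 5.37 in homozygous brain and 5.89, 5.31, 5.57 and 5.38 in wild-type brain (difference 0.08, interval -0.31 to 0.47).

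Metabotropic glutamate receptors differed little between genotypes in brain. Grm8 lay at 6.84, 6.89, 6.86 and 6.88 in homozygous brain and at 6.97, 6.70, 6.78 and 6.81 in wild-type brain (difference 0.05, interval -0.17 to 0.27). Grm4 was the lowest of the class, with 4.92, 4.95, 4.59 and 4.88 in homozygous brain and 5.01, 5.03, 5.08 and 4.75 in wild-type brain (difference -0.14, interval -0.41 to 0.14). Grm7 lay at 6.01, 5.99, 5.98 and 6.42 in homozygous brain and at 5.92, 6.15, 5.95 and 6.35 in wild-type brain, a difference of 0.01 (interval -0.31 to 0.33). In each of the 3 the genotypes overlapped.

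The GABA receptor subunit furthest below 0 was Gabrb2, a beta subunit of the most common GABA-A receptors. Its probe ILMN_2696413 lay at 6.63, 6.32, 6.46 and 5.81 in homozygous brain and at 6.98, 5.86, 6.87 and 6.74 in wild-type brain. Low values occurred in both genotypes, in homozygous mouse 4 and wild-type mouse 2, and the difference of -0.31 had an interval of -0.88 to 0.26 (SE 0.26, unadjusted p = 0.25, limma). Gabra6 was furthest above 0 among GABA-A probes, with 5.54, 5.98, 4.90 and 5.99 in homozygous brain and 5.78, 5.05, 5.64 and 5.36 in wild-type brain (difference 0.14, interval -0.41 to 0.70). Gabrb1, in contrast to Gabra6, had a narrow spread, at 9.29, 9.26, 9.28 and 9.17 in homozygous brain and 9.16, 9.14, 9.30 and 9.41 in wild-type brain (difference -0.01, interval -0.24 to 0.23). Gabbr1 lay at 8.51, 8.48, 8.73 and 8.51 in homozygous brain and at 8.42, 8.46, 8.48 and 8.78 in wild-type brain (difference 0.02, interval -0.24 to 0.29).

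The class medians of the genotype difference in brain were -0.02 for 9 AMPA probes, 0.04 for 3 kainate probes, -0.12 for 3 NMDA probes, 0.007 for 3 metabotropic probes and -0.006 for 7 GABA-A probes. No class had all its probes on one side of 0 apart from GABA-B, which had a single probe.

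**Figure D2:**
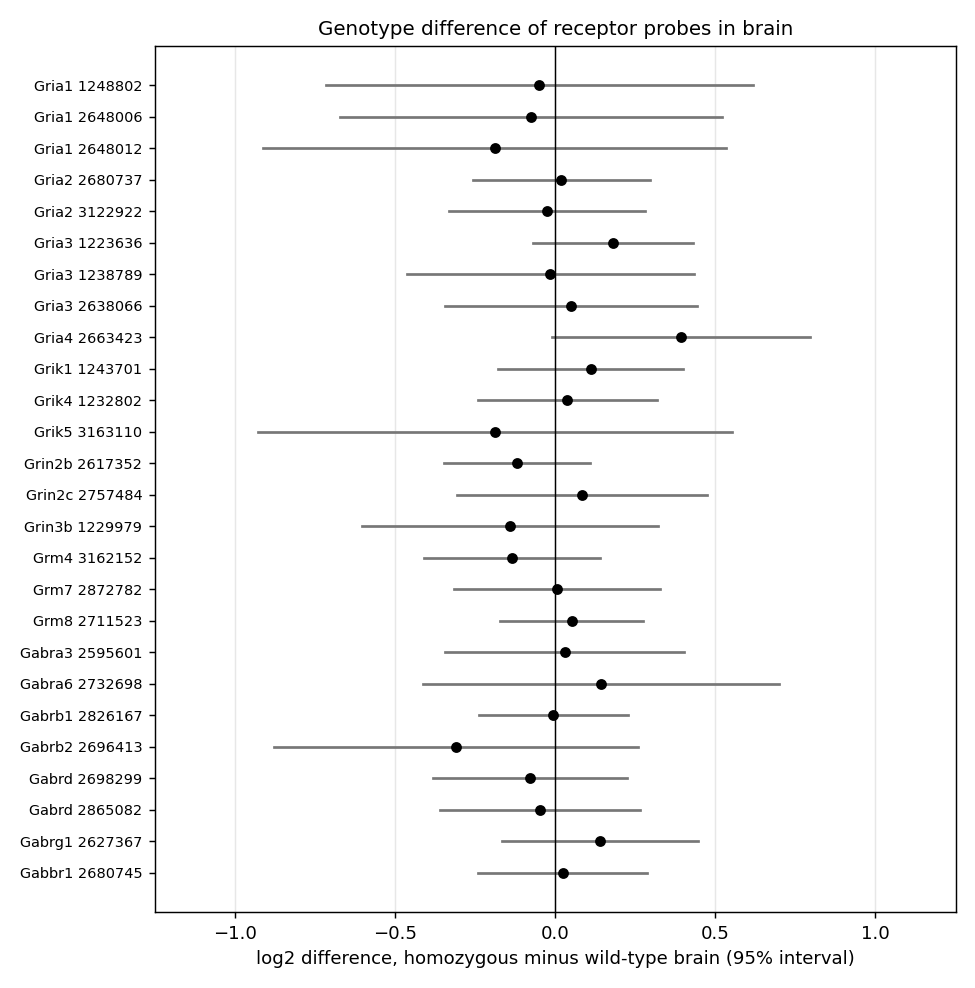
Log2 difference, homozygous minus wild-type brain (horizontal axis), for the 26 receptor probes tested, with 4 mice per genotype; points are the fitted differences and bars their 95% intervals (limma). Every interval crosses 0 and stays within 1 either way, with Gria4 at 0.39 and Gabrb2 at -0.31 at the ends.

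Gria1 and Grik5 varied between brain arrays along with the brightness of the array. These genes were singled out after their values were seen. In 4 brain arrays (homozygous mice 1 and 2, wild-type mice 1 and 3) the 75th percentile of the deposited signal lay between 302 and 343, and in the other 4 (homozygous mice 3 and 4, wild-type mice 2 and 4) between 241 and 271, so that each set held 2 mice of each genotype. The labels do not say what sets the arrays apart, and the differences below are those that remained after background correction and normalization.

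Gria1 probe ILMN_1248802 lay at 9.70, 9.34, 9.38 and 9.43 on the brighter arrays and at 8.63, 8.38, 8.56 and 8.88 on the dimmer arrays. Its other probes gave 8.37, 8.15, 8.45 and 8.04 against 7.47, 7.34, 7.59 and 7.55 (ILMN_2648006), and 8.37, 8.29, 8.39 and 8.40 against 7.85, 6.88, 7.48 and 7.87 (ILMN_2648012). All 3 probes were therefore higher on every brighter array than on any dimmer one, by 0.85, 0.76 and 0.84 on average. Grik5 showed the same split, at 8.04, 7.96, 8.25 and 7.97 on the brighter arrays and 7.05, 6.82, 7.38 and 7.02 on the dimmer arrays, a mean difference of 0.99. Gabrd probe ILMN_2865082 was the fifth, with a difference of 0.30. Without background correction, an alternative chosen after seeing the data, all 5 differences kept their direction and were smaller, at 0.51 and 0.55 for Gria1 probes ILMN_2648006 and ILMN_2648012, 0.60 for Grik5, 0.69 for Gria1 probe ILMN_1248802 and 0.23 for Gabrd. Over the 3 alternatives run, the highest values, in the same order, were 0.83, 0.91, 1.07, 0.93 and 0.32, above those of the main processing.

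These 5 probes are 19.2% of the 26 receptor probes, while the brightness sets did not overlap for 32.9% of all tested probes. With the brighter set above the dimmer, as for all 5, the share of all probes was 16.6%, near that of the receptor probes. Gria2, the partner of Gria1 in many AMPA receptors, differed by 0.20 on both of its probes with overlapping sets, and Gabrb1 by 0.003. Of 16 lists of cell type and region markers, 3 had averages that did not overlap between the sets, as deviations from the mean over the 8 arrays. The 5 probes of hippocampal markers averaged -0.27 to -0.19 on the brighter arrays and 0.16 to 0.31 on the dimmer arrays. The 7 probes of astrocyte markers averaged 0.06 to 0.16 on the brighter and -0.21 to -0.07 on the dimmer arrays, but not as one: Aqp4 differed by 1.08 and Gfap by 0.48, while 2 of the 3 Aldh1l1 probes went the other way, at -0.11 and -0.22. The 6 probes of stellate cell markers, a list placed among those of liver cells, averaged 0.009 to 0.20 and -0.27 to -0.003. The other 13 lists overlapped, among them neurons (9 probes, -0.06 to 0.02 on the brighter and -0.07 to 0.13 on the dimmer arrays), cerebellar cells (7 probes, -0.09 to 0.13 and -0.05 to 0.05) and striatal neurons (8 probes, -0.06 to 0.04 and -0.07 to 0.06). In these lists too, the probes did not move as one. From dimmer to brighter arrays, the neuronal Map2 probes differed by -0.63, -0.67 and 0.37. Among striatal neuron markers, Rgs9 differed by -0.66 and the Ppp1r1b probes by 0.09, 0.50 and -0.32. The part of region, cell type or array handling in these differences was not tested.

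With brightness as a block in the genotype fit, 0 of the 26 receptor probes passed (smallest adjusted p = 0.658, limma) and the median SE was 0.11. Gria4 was the 1 receptor probe with an unadjusted p under 0.05 in that fit, where 7.55% of all probes had one. Its difference was -0.054 within the brighter arrays and 0.84 within the dimmer arrays, with 2 mice of each genotype in each.

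**Figure D3:**
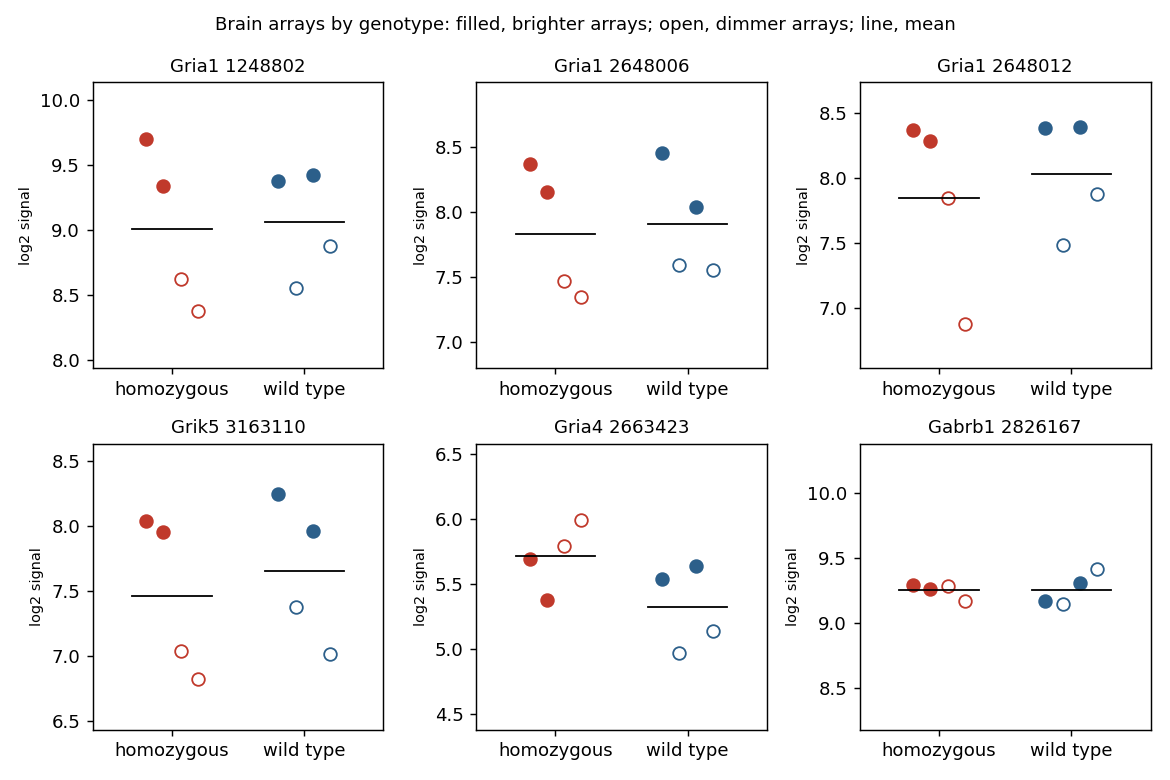
Log2 signal within brain (vertical axes, each panel with its own range) for 6 receptor probes in 4 homozygous (red) and 4 wild-type (blue) mice; filled points are brighter arrays, open points dimmer arrays, and lines are means. For the 3 Gria1 probes and Grik5 the filled points stand above the open points in both genotypes, while the points of Gabrb1 lie between 9.14 and 9.41.

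In liver, 6 receptor probes were detected on at least 4 of 8 arrays, and none passed the threshold for a change with genotype. With limma over the 11955 probes detected in liver, 0 of these 6 passed an adjusted p of 0.05, while 0.903% of all probes passed (0.368% rose and 0.535% fell), and 0 had an unadjusted p under 0.05 (22.6% of all probes). Homozygous and wild-type arrays overlapped for all 6, while they did not overlap for 13.0% of all probes. Of the 6, 4 lay above 0, and their median log2 difference was 0.01, against 0.02 for all probes.

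Grm8, detected on all 8 liver arrays, lay at 5.54, 4.85, 5.06 and 5.19 in homozygous liver and at 5.00, 5.01, 4.85 and 4.69 in wild-type liver, on the scale normalized within liver. Homozygous mouse 1 was the highest and mouse 2 was level with wild-type mouse 3, and the difference was 0.27 (SE 0.15, interval -0.07 to 0.61, adjusted p = 0.316, limma). Grin2c lay at 5.02, 4.81, 5.23 and 4.92 in homozygous liver, where all 4 arrays detected it, and at 4.54, 4.69, 4.80 and 4.98 in wild-type liver, where 2 did. Its difference of 0.24 (SE 0.13, interval -0.05 to 0.53) had the smallest adjusted p of the 6, 0.287 (limma).

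Grik5 lay at 4.71, 4.60, 4.64 and 4.53 in homozygous liver and at 4.68, 4.56, 4.82 and 4.91 in wild-type liver (difference -0.12, interval -0.36 to 0.12, adjusted p = 0.525, limma), with 1 homozygous and 3 wild-type arrays detecting it. The other 3 were centred on 0. Gria2 probe ILMN_2680737 lay at 4.95, 4.48, 4.44 and 4.69 in homozygous liver and at 4.78, 4.81, 4.44 and 4.59 in wild-type liver (difference -0.01, interval -0.33 to 0.30). Gria3 probe ILMN_2638066 lay at 5.15, 4.44, 4.65 and 4.81 in homozygous liver and at 4.49, 4.55, 5.13 and 4.84 in wild-type liver (difference 0.02, interval -0.40 to 0.43). Each of them was detected on 2 arrays of each genotype. Grik4 lay at 4.97, 4.41, 4.63 and 4.70 in homozygous liver and at 4.69, 4.75, 4.45 and 4.77 in wild-type liver (difference 0.01, interval -0.29 to 0.32).

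**Figure D4:**
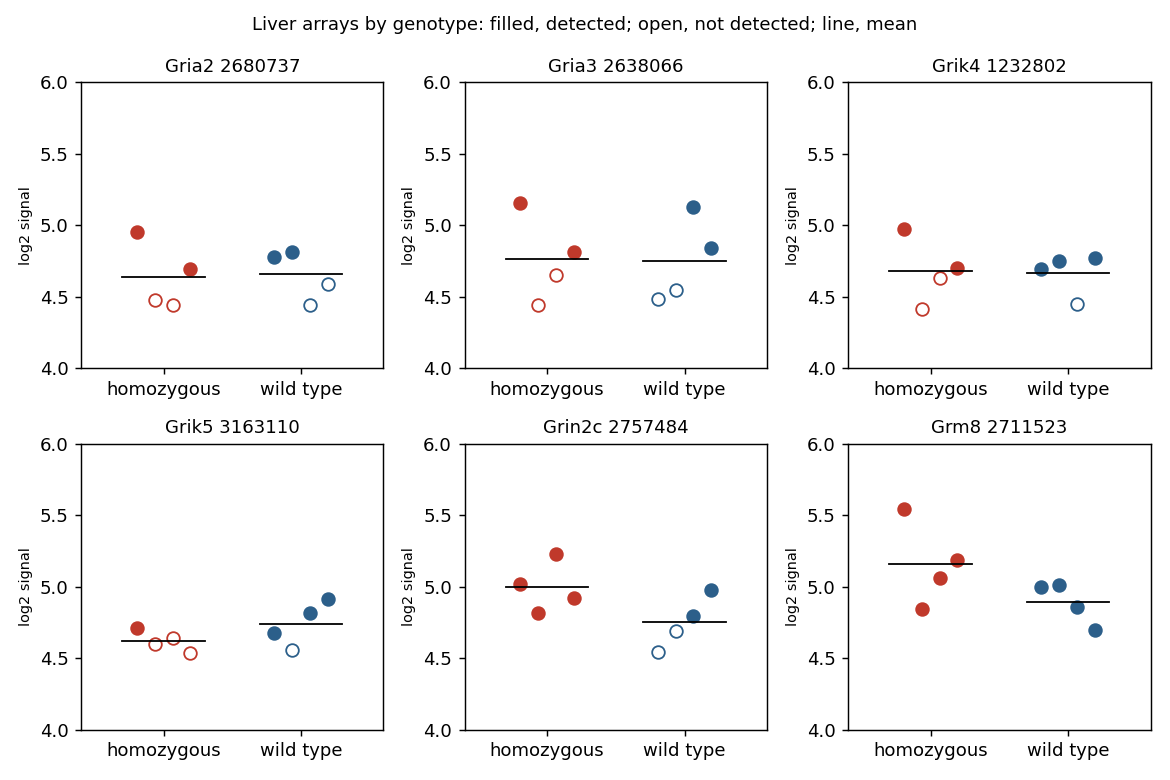
Log2 signal within liver (vertical axes, 4 to 6) of the 6 receptor probes detected on at least 4 of 8 liver arrays, in 4 homozygous (red) and 4 wild-type (blue) mice; filled points are arrays on which the probe was detected, open points arrays on which it was not, and lines are means. Grm8 has 8 filled points, Grin2c 6, and the groups overlap in every panel.

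Whether genotype acted differently in liver and in brain could be tested for the 6 probes measured in both tissues, and 0 of them passed (smallest adjusted p = 0.686, limma) or had an unadjusted p under 0.05, with 0.0762% of all 10492 probes passing. The difference between the effects, liver minus brain, was 0.22 for Grm8 (SE 0.18) and 0.16 for Grin2c (SE 0.22).

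The genes that supply glutamate and GABA and that hold their receptors at the synapse were examined beside the receptors, as lists. Of the genes of glutamate and GABA synthesis, transport and breakdown, brain gave 29 tested probes of 20 genes, of which 0 passed, and their median log2 difference was -0.02 (0.005 for all probes). The smallest p belonged to Gad1, which encodes a GABA-synthesizing enzyme (0.24, SE 0.10, unadjusted p = 0.035, adjusted p = 1, limma). Liver gave 18 tested probes of 12 genes, of which 1 rose and 0 fell (0.368% and 0.535% of all tested liver probes), and their median was -0.01. The gene that rose was Slc17a8, a vesicular glutamate transporter, at 1.73 (SE 0.31, adjusted p = 0.0453, limma). Its call was kept without wild-type liver 3 (adjusted p = 0.0186) and was lost when any other single liver array was left out (adjusted p 0.0516 to 0.164), with changes of 1.48 to 1.94 over these 8 fits. It was also lost without background correction (0.0597), without wild-type mice 1 and 2 (0.104), with quantile normalization over all 16 arrays (0.0566), with detection required on all 8 arrays (0.0520) and with no detection filter (0.0907). Of 17 alternatives in all, 4 kept the call, with a smallest adjusted p of 0.0072 (limma).

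Among receptor scaffolds and auxiliary subunits, brain gave 39 tested probes of 27 genes, of which 0 passed, and their median was 0.0006. Cacng8, an auxiliary subunit that binds AMPA receptors, had the smallest p, at -0.35 (SE 0.10, unadjusted p = 0.0074, adjusted p = 1, limma). Liver gave 10 tested probes of 6 genes, of which 0 passed, with a median of 0.10 (0.02 for all probes) and the smallest p for Dlg3, which encodes a synaptic scaffold protein (0.83, SE 0.33, adjusted p = 0.188, limma). Dlg3 passed with array weights (1.24, adjusted p = 0.0122) and without wild-type liver 3 (1.11, adjusted p = 0.0470), while its difference was 0.55 without wild-type liver 1 and 0.16 without wild-type mice 1 and 2. Of the glycine receptor and rho-type GABA receptor subunits, 3 probes were tested in brain and none in liver. None passed, and Glrb, the beta subunit of the glycine receptor, had the smallest p (0.14, SE 0.11, adjusted p = 1, limma).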

How the data were processed

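For 16 single-colour Illumina arrays the authors deposited linear intensity values without normalization between arrays, and with each intensity the authors deposited a detection p-value. A second deposited table holds the authors' normalized intensity values, and the submitters' processing notes name GenomeStudio 2011.1 without settings. Here signals were background-corrected with nec of limma 3.58.1 in R 4.3.3 (detection p-values, offset 16), quantile-normalized within a tissue (over all 16 arrays for brain against liver) and put on the log2 scale. Probes detected on at least 4 of 8 arrays (4 of 16 for brain against liver) were fitted with lmFit and eBayes, with Benjamini-Hochberg adjustment over all tested probes. The script was tested on simulated data. The number of arrays limits precision.

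Probe symbols came from the platform annotation (23978 probes with 1 symbol, 1719 with none, 0 with several), and all 31 receptor symbols matched the RefSeq table of GRCm38.p6, which served for names, chromosomes, distances and promoter windows. The build behind the probes is not given in the sources used here.

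Receptor genes and all lists were chosen with earlier results of these data known. By rule, values by mouse are given for the 4 smallest p in each tissue and for probes detected in liver, and the lowest, median and highest array of each tissue for the largest and smallest fitted difference between brain and liver per class. Some other probes, Gria1 among them, are also given by mouse, chosen after their values were seen. Brain and liver arrays were matched by mouse identifier. The main fits of brain against liver, and of the genotype effect between tissues, had no term for mouse and were therefore unpaired. Mouse entered as a block only in the alternative fits named so. Alternatives changed background correction, normalization, detection filter, variance model, blocks and the arrays included.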

Additional observations from a re-analysis of the deposited data

Results flagged for a closer look

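In 3 of 64 groups of 4 mice examined, 1 mouse lay far from the other 3 by Dixon's test, where chance flags about 1 in 20 groups. Gria2 probe ILMN_3122922 was at 9.94 on the log2 scale in wild-type brain 2, against 10.35 to 10.40 in the other wild-type brains. Gabbr1 probe ILMN_2680745 was at 8.73 in homozygous brain 3, against 8.48 to 8.51 in the other homozygous brains. Grm7 was at 6.42 in homozygous brain 4, against 5.98 to 6.01 in the others.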

How the results depend on the processing

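No receptor probe passed in the genotype comparison of brain, of liver or of their difference under any alternative run, and the median in brain stayed between -0.06 and 0.04. Gria4 in brain turned to -0.054 within the brighter arrays. Same-numbered homozygous and wild-type mice are different animals, their deviations correlated at 0.56, -0.46, -0.51 and 0.42 in brain and between -0.036 and -0.0018 in liver, and not every array correlated best with its own number, so the numbers were not taken as pairs. Replicate number as a block (the replicate block) left 0 receptor probes called in either tissue, and gave Slc17a8 in liver an adjusted p of 0.0693, while calls among all probes were 1 in brain against 2, and 32 in liver against 108. The cause of these changes was not tested. In liver, requiring detection on all 8 arrays left Grm8 alone and a median of 0.27, and single mice left out gave medians from -0.10 to 0.11. The median difference between brain and liver was 0.60 with the authors' normalized values, 0.44 without background correction, 1.98 with each tissue normalized on its own, 1.47 in wild-type arrays only and 1.37 to 1.44 with single mice left out, and mouse as a block kept the count of receptor probes higher in brain at 22. Calls among all probes moved more: 0 to 5 in brain, 9 to 2931 in liver (2931 with array weights, 944 without wild-type liver 3, 9 without homozygous liver 4) and 0 to 75 for the difference between tissues (75 without wild-type mouse 3). The offset of 16 compresses differences of probes near background toward 0 on the log2 scale.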
